A study of Mus musculus with 6 samples.

Results

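Wild-type (WT) bone marrow cells that pass a stem cell gate were divided by the amount of Txnip messenger RNA they carried, and the Txnip-high cells were compared with the Txnip-negative cells of the same sample. The gate kept cell barcodes with 5000 to 15000 unique molecular identifiers (UMIs, tags that count single RNA molecules), at most 10% mitochondrially encoded UMIs, at least 1 Hlf UMI, at least 2 UMIs of Hlf, Mecom and Procr together, at most 2 Pf4 and 2 Car1 UMIs and 0 Dntt UMIs. Of 48277 barcodes in 6 samples, 1426 barcodes of the 3 WT samples passed it. Cells with at least 4 Txnip UMIs were called Txnip-high and numbered 299, 170 and 222 in WT 1, 2 and 3. Cells with 0 Txnip UMIs were called Txnip-negative and numbered 27, 72 and 34, so that 824 cells entered the comparison. The members were thus selected on their measured Txnip UMIs, and Txnip, the 6 gate genes, UMI depth and mitochondrial share are described below without a test.

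The study profiled mouse bone marrow by droplet single-cell RNA sequencing of the 3' end of transcripts, in 3 WT and 3 Txnip knock-out (Txnip-KO) samples. Marrow was flushed from the bones and enriched, and cells of interest were then picked by flow cytometric sorting, though the labels do not name the sorted population. No treatment, age or strain is given in the labels, nor which piece of Txnip the knock-out allele lacks. Nothing in the labels ties samples to separate animals. Within WT the p-values therefore reflect how class differences within a library vary between libraries. Between genotypes they reflect the spread between libraries. Some of this variation may be technical.

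Txnip encodes thioredoxin-interacting protein, an arrestin-fold protein that binds thioredoxin and takes glucose transporters off the cell surface. Its transcription follows glucose supply through the factors MondoA and ChREBP, which bind a paired carbohydrate response element next to the gene's start, and it is also a target of FoxO factors. Haematopoietic stem cells sit at the top of blood formation, divide rarely, and express Hlf, Mecom and Procr, while their progeny switch on granule proteins, lymphoid genes and the machinery of growth and division.

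The 250 bases before the start of Txnip are printed because they hold the element that links the gene to glucose supply, as given by RefSeq on mouse build GRCm38.p6, plus strand, chr3:96557707-96557956. Capitals mark CACGAG, each unit of the paired element, and GTAAACA, a FoxO core.

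Txnip promoter: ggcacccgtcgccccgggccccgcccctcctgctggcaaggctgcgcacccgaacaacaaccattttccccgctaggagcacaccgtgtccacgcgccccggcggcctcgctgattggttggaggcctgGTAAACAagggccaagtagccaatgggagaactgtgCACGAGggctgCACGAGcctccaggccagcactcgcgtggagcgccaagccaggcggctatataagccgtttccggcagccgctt

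The CACGAG units lie 85 to 80 and 74 to 69 bases before the start, with 5 bases between them, and GTAAACA lies 121 to 115 bases before it. A pair of CACGAG or CACGTG units at this spacing on the same strand was found in 4 of 27025 mouse promoters (0.0148%) and in 0 of the promoters searched for the strongest changes of the comparison below, those of 8 rises and 9 falls. CACGAG on either strand is in 6.62% of all promoters, and among these rises and falls it was found before Atp8b4, Cenpf and Ctsg. CACGTG, which reads the same on both strands, is in 7.24% of all promoters and was found at Pdzk1ip1. GTAAACA is in 3.55% of all promoters and in 0 of those of the same rises and falls. These matches are letters in a window, and no binding was measured.

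The gated cells carried stem cell transcripts beyond those the gate used. Of 13 HSC markers outside the rule, 12 were higher in gated cells than in the other barcodes within the same UMI and mitochondrial limits in each of the 3 WT samples, and Slamf1 was not. Their summed level was 1519, 1464 and 1580 CPM (UMIs scaled to a common total) in the gated cells and 651, 616 and 605 CPM in the others. The summed level of 11 erythroid markers outside the rule was higher too, at 940, 890 and 959 CPM against 459, 439 and 440 CPM. Some gated cells belonged to other lineages by their transcripts: 6 of 27, 5 of 72 and 3 of 34 Txnip-negative cells and 19 of 299, 7 of 170 and 17 of 222 Txnip-high cells held at least 10 UMIs of the markers of 1 other lineage. The lineages searched were neutrophil, NK, T or innate lymphoid, B, basophil or mast, monocyte and plasmacytoid dendritic. Granulocyte-monocyte progenitors, erythroid, megakaryocyte and conventional dendritic cells were not searched for and stayed in. In WT 1 the cells found included 2 Txnip-negative cells with neutrophil markers and 4 with NK, T or innate lymphoid markers. The number of genes called in each comparison is therefore also given without such cells, an alternative added once the data had been seen. The WT libraries share between 9 and 21 barcodes pairwise, and 0 of them are stem-gated.

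Txnip was detected in most WT stem-gated cells, and its level differed between samples. The median was 5, 2 and 4 Txnip UMIs per stem-gated cell in WT 1, 2 and 3, and Txnip-high cells made up 62.8%, 32.1% and 52.9% of the gate. Over all stem-gated cells Txnip stood at 501, 274 and 407 CPM of all UMIs. Flt3 Dntt progenitors, gated by at least 1 Flt3 and 1 Dntt UMI without Hlf or Ebf1, held 265, 139 and 219 CPM, and NK cells, gated by Ncr1 without Hlf or Cd3e, held 253, 217 and 280 CPM. The stem-gated level was above both other gates in each sample. In the Txnip-KO samples the stem gate held 15.5, 17.0 and 0.161 CPM of Txnip, and 3 of 936, 2 of 1319 and 0 of 718 cells reached 4 UMIs. These shares do not bound free Txnip RNA in WT droplets, which was not measured. Txnip-KO 3 stands apart from the other Txnip-KO samples by its lower Txnip reads.

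**Figure D1:**
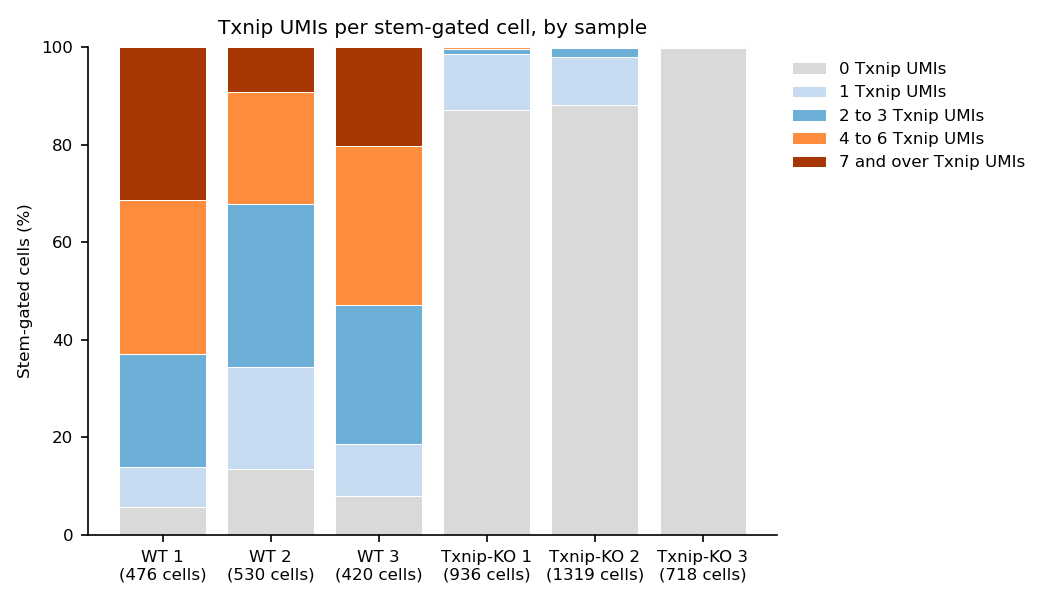
Share of stem-gated cells (y axis, percent) with 0, 1, 2 to 3, 4 to 6 and 7 or more Txnip UMIs in each of the 6 samples (x axis, with the number of cells). The Txnip-negative share is 5.67% to 13.6% in the WT samples and 87.2% to 99.9% in the Txnip-KO samples.

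The gate genes themselves differed between the classes. Txnip-high cells held a mean of 5.84 Hlf UMIs per cell and Txnip-negative cells 4.03, for Mecom 0.961 and 0.468, and for Procr 0.507 and 0.231 (means of 3 samples). The cells next to the threshold were close to each other: cells with exactly 3 Txnip UMIs held 4.60, 4.69 and 4.93 Hlf UMIs in WT 1, 2 and 3, and cells with exactly 4 held 5.12, 4.92 and 5.13. The median depth was 10786 ± 724 UMIs in Txnip-negative and 10099 ± 176 in Txnip-high cells, and the median mitochondrial share was 3.60% ± 0.110 and 3.90% ± 0.0429 (SD, n = 3). The Txnip-negative class was the less deeply sampled, with 279871, 794367 and 392180 UMIs in all against 3099296, 1722921 and 2261088.

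The genes higher in Txnip-high cells included 13 of 29 tested stem cell genes and a few of antigen presentation, and those lower included granule protein, lymphoid-progenitor, DNA replication, ribosome biogenesis and protein-folding genes. Over the 3 samples, 208 of 8774 genes tested passed the edgeR quasi-likelihood test with the sample as a block (Benjamini-Hochberg adjusted p under 0.05), 70 higher (0.798%) and 138 lower (1.57%), which is 2.37% of genes. The count includes Txnip and gate genes. Counts of called list members below are to be read beside these shares of all genes, 0.798% higher and 1.57% lower. The median log2 fold change over all genes tested was -0.0077. Without cells of other lineages, 222 of 8675 genes passed (2.56%), 72 higher (0.830%) and 150 lower (1.73%), and 167 genes were called in both. Of the 208 called genes, 204 changed in the same direction in all 3 samples, and in 190 the 3 values of a class lay entirely above those of the other, which holds for 20.1% of all genes tested. The count fell to 43 of 5032 tested genes with cells matched in depth, to 61 of 7062 with only cells lacking division transcripts, and to 39 of 4560 with cells matched on Hlf, Mecom and Procr UMIs. All of these use fewer cells and test fewer genes. The cells lacking division transcripts included 8, 36 and 18 Txnip-negative cells in WT 1, 2 and 3. CPM in the comparison are scaled by TMM, and log2 fold changes are Txnip-high over Txnip-negative with the standard error of the fit.

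Pdzk1ip1 and Mllt3 were among the stem cell genes that rose. Pdzk1ip1, a small membrane protein found in stem cells, stood at 22.2, 37.3 and 26.3 CPM in the Txnip-negative cells of WT 1, 2 and 3 and at 98.7, 101 and 131 CPM in the Txnip-high cells. Every Txnip-high value was more than the highest Txnip-negative value, and the log2 fold change was 1.82 ± 0.21 (SE) at an adjusted p of 2.0e-05. Mllt3, a transcription elongation factor that maintains stem cells, stood at 33.3, 36.0 and 10.5 CPM against 92.6, 98.1 and 93.5 CPM. Its log2 fold change was 1.77 ± 0.23 with an adjusted p of 0.000101. The Mllt3 classes did not overlap either, and the spread lay in the Txnip-negative cells, where WT 3 was low. Their values without cells of other lineages were 1.79 and 1.81. With cells matched on Hlf, Mecom and Procr UMIs Pdzk1ip1 still passed, while Mllt3 had 1.03 and did not (adjusted p = 0.142).

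Of 40 genes listed for stem cell identity, 29 were tested, 13 were higher and 0 lower, with a median log2 fold change of 0.55, and 13 were higher without cells of other lineages. Ifitm1, an interferon-induced membrane protein, stood at 385, 751 and 458 CPM in Txnip-negative cells and at 936, 1349 and 1128 CPM in Txnip-high cells, without overlap (log2 fold change 1.09 ± 0.08, adjusted p = 5.5e-08). Ly6a, the Sca-1 antigen by which stem cells are sorted, was even across samples, at 62.9, 63.0 and 65.8 CPM against 113, 147 and 132 CPM (1.08 ± 0.16, adjusted p = 0.000354). Ifitm3, a relative of Ifitm1, rose by 0.52. Among the 9 tested HSC markers outside the rule, 5 rose and 0 fell, and these included the homeobox factor Meis1 (0.57). Without cells of other lineages, the sum of 12 erythroid markers was 498 to 888 CPM in Txnip-negative and 1067 to 1148 CPM in Txnip-high cells. That of 10 megakaryocyte markers was 228 to 267 and 318 to 351 CPM, and both lists include gate genes. Erythroid and megakaryocyte cells were not among those left out. Outside the rule 1 of 3 tested erythroid and 1 of 6 tested megakaryocyte markers rose, and 0 fell. Of 11 tested platelet-biased stem cell genes 2 rose and 0 fell, among them Socs2, a brake on cytokine signalling that stood at 0, 1.29 and 2.63 CPM against 16.4, 20.1 and 12.7 CPM. Mmrn1 (1.33, adjusted p = 0.0691) and Aldh1a1 (2.14, adjusted p = 0.194) did not pass.

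Other rises were in genes of antigen presentation and signalling. Cd74, the chaperone of class II antigen-presenting molecules, stood at 25.9, 21.9 and 7.90 CPM in Txnip-negative cells and at 58.2, 86.6 and 48.3 CPM in Txnip-high cells (1.89 ± 0.25, adjusted p = 0.000104). H2-Aa, a class II chain, stood at 14.8, 11.6 and 5.27 CPM against 35.4, 46.5 and 30.7 CPM (1.92 ± 0.33, adjusted p = 0.00173). Neither pair of classes overlapped. Of 18 tested antigen presentation genes 3 rose and 0 fell, with a median of 0.16, and the third, the class I heavy chain H2-K1, rose by 0.25 but did not pass without cells of other lineages (adjusted p = 0.0649). Conventional dendritic cells also express Cd74 and H2-Aa. The summed level of 10 conventional dendritic markers, which include these genes, was 210 to 256 CPM in Txnip-negative and 269 to 305 CPM in Txnip-high cells without other lineages, with Xcr1, Batf3 and Cd209a at 0, and the part of such cells in the result was not tested.

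A further 6 named rises kept their call without cells of other lineages: Plxna4os1 (2.68), Tnfsf12 (2.37), Trim47 (1.71), Hacd4 (1.66), Ctsh (1.64) and Flywch2 (1.62). Hacd4, an enzyme of long-chain fatty acid elongation, was the most even of them, at 25.9, 32.1 and 29.0 CPM in Txnip-negative and 97.4, 95.2 and 90.8 CPM in Txnip-high cells (SE 0.20, adjusted p = 2.9e-05), but it had 0.96 and did not pass with cells matched on the gate genes (adjusted p = 0.116). Tnfsf12 encodes the cytokine TWEAK and stood at 0, 2.57 and 10.5 CPM against 20.3, 22.9 and 22.6 CPM. Without WT 2 Tnfsf12, Trim47, Ctsh and Flywch2 did not pass (adjusted p = 0.131, 0.072, 0.407 and 0.128), and without WT 1 neither did Ctsh and Flywch2 (adjusted p = 0.0641 and 0.0642). Trim47 is a ubiquitin ligase and Ctsh the lysosomal protease cathepsin H. Plxna4os1 is antisense to Plxna4, and the sources used here do not say whether counting took strand into account.

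**Figure D2:**
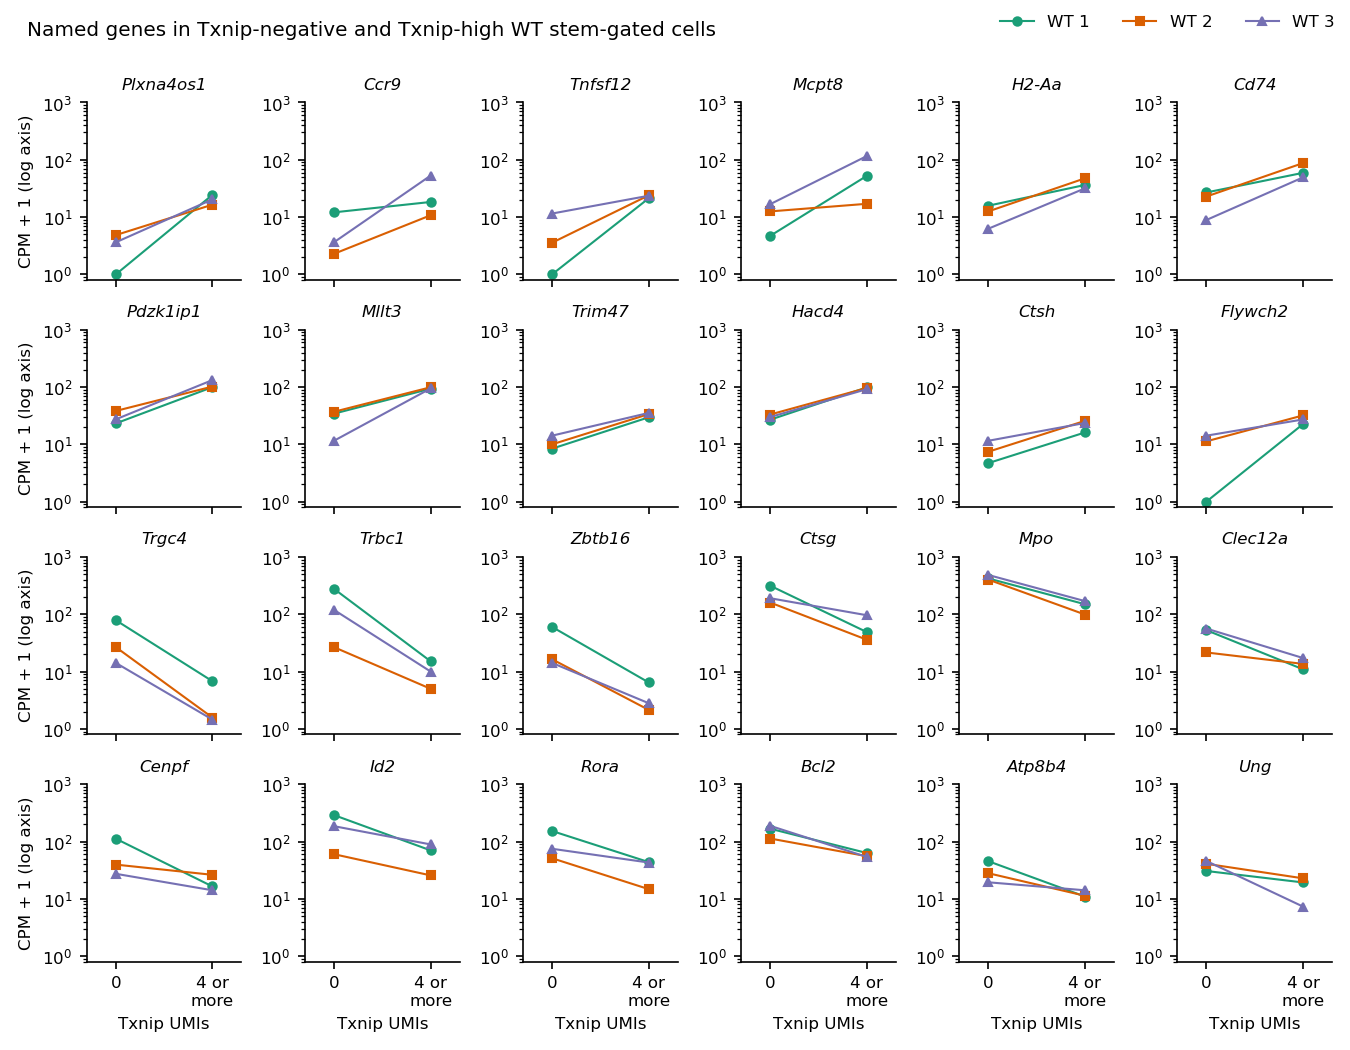
CPM plus 1 (y axis, log scale) of the 12 largest rises and 12 largest falls in Txnip-negative (0 UMIs) and Txnip-high (4 or more UMIs) stem-gated cells, with 1 line for each of the 3 WT samples. Every line of Hacd4 and Pdzk1ip1 ascends and every line of Mpo and Ctsg descends, while Trbc1, Id2 and Cenpf start highest in WT 1.

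The clearest falls were in granule protein genes of the granulocyte and monocyte branch. Mpo, the myeloperoxidase of neutrophil granules and an early sign of myeloid commitment, stood at 422, 402 and 485 CPM in Txnip-negative and at 149, 98.1 and 169 CPM in Txnip-high cells. The classes were far apart in each sample, and the gene fell by 1.69 ± 0.11 on the log2 scale (adjusted p = 3.0e-09). Ctsg, the granule protease cathepsin G, stood at 315, 159 and 190 CPM against 47.9, 35.0 and 95.3 CPM (-1.93 ± 0.21, adjusted p = 1.9e-05). Of 6 tested granulocyte-monocyte progenitor markers 4 fell and 0 rose. The others were Calr, a chaperone of the endoplasmic reticulum (-0.44), and Clec12a, a lectin of myeloid cells (-1.61), which did not pass without cells of other lineages (-1.18, adjusted p = 0.0852). Without WT 1 Clec12a did not pass either (-1.29, adjusted p = 0.0542). Mpo and Ctsg had -1.77 and -2.23 without cells of other lineages, but that step did not leave out granulocyte-monocyte progenitors. Among cells lacking division transcripts Mpo still passed, at -1.44, while Ctsg had -0.67 and did not (adjusted p = 0.412). In that setting WT 1 had 8 Txnip-negative cells. With cells of other lineages left out, 10 neutrophil markers summed to 18.4 to 33.7 CPM in Txnip-negative and 23.9 to 27.9 CPM in Txnip-high cells. Mmp8 and Ly6g were then at 0.

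Genes of multipotent and lymphoid-primed progenitors also fell. Cd48, a SLAM-family surface protein that is low on the most primitive stem cells, stood at 163, 162 and 113 CPM in Txnip-negative and at 75.9, 75.7 and 70.5 CPM in Txnip-high cells (-0.98 ± 0.15, adjusted p = 0.000376). The classes did not overlap. Of 6 tested lymphoid-primed markers 3 fell and 0 rose, Cd48 and the chromatin organiser Satb1 (-0.64) among them. Of 15 tested genes of multipotent and lymphoid progenitors 4 fell and 1 rose, the chemokine receptor Ccr9 (2.60), which was not tested without cells of other lineages because too few counts were left. Without WT 3 Ccr9 had 1.54 and did not pass (adjusted p = 0.377), nor did it with no replicate block (adjusted p = 0.0697). Ccr9 also marks plasmacytoid dendritic cells, which were 2, 1 and 2 of the Txnip-high and 0 of the Txnip-negative cells by their markers.

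Cell division transcripts were lower in Txnip-high cells. Of 35 tested S-phase genes 8 fell and 0 rose (median -0.42), and without cells of other lineages 10 fell. Nasp, a histone chaperone, fell by 0.87, and the replicative helicase subunits Mcm7, Mcm5 and Mcm3 fell by 0.65, 0.95 and 0.63. Ung, which removes uracil from DNA, stood at 29.6, 39.8 and 44.8 CPM against 18.3, 21.8 and 6.32 CPM (-1.32 ± 0.34, adjusted p = 0.0428). Without WT 3 Ung had -0.80 and did not pass (adjusted p = 0.289), and with depth-matched cells it had -0.82 (adjusted p = 0.518). Of 38 tested G2M genes 3 fell and 0 rose (median -0.33), but without cells of other lineages 0 of 34 passed by edgeR, 8 of them at an unadjusted p under 0.05. These were Hmgb2 (-0.51), Cenpf (-1.54) and Top2a (-0.96). Without WT 1 Cenpf had -0.73 (adjusted p = 0.318), and it was 111 CPM in the Txnip-negative cells of WT 1 and 23.5 CPM there without the other lineages.

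Cdk6, a kinase that sets how fast a stem cell leaves quiescence, stood at 363, 473 and 416 CPM in Txnip-negative and at 280, 285 and 247 CPM in Txnip-high cells, without overlap (-0.64 ± 0.10, adjusted p = 0.000398). Cdkn1c, the cell cycle inhibitor p57, rose by 1.44 ± 0.32 (adjusted p = 0.0173), from a mean of 10.7 to 31.3 CPM. Among 16 tested cyclins and CDK regulators these were the calls, 1 in each direction. Of 22 tested genes of quiescence and mRNA decay 2 rose, Cdkn1c and the mRNA decay factor Zfp36l2 (0.33), and 0 fell. With each cell thinned to 5000 UMIs, cells with an Mki67 or Top2a UMI made up 29.6%, 23.6% and 17.6% of Txnip-negative and 19.4%, 17.6% and 9.91% of Txnip-high cells in WT 1, 2 and 3. The share was lower in Txnip-high cells in 3 of 3 samples, by 7.98 ± 2.14 percentage points (SD), with p = 0.25 in a two-sided exact sign-flip permutation test, the smallest that 3 pairs allow. With unthinned cells matched in depth the difference was -3.97 ± 9.50 points, and in WT 2 the share was then higher in Txnip-high cells, 37.7% against 34.8% (exact permutation p = 1). Unthinned, the shares were 33.2% ± 5.85 and 26.4% ± 5.14. Median detected genes per thinned cell were 1902 ± 29.8 in Txnip-negative and 1933 ± 23.1 in Txnip-high cells, higher in 3 of 3 samples (exact p = 0.25), and unthinned 3128 ± 160 and 3058 ± 42.6. With depth-matched cells they were higher in 1 of 3 samples, by a mean of 16.2 ± 112 genes (exact permutation p = 1).

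Growth genes fell together with the replication genes. Of 32 tested genes of ribosome biogenesis and MYC-linked growth 10 fell and 1 rose (median -0.43), and without cells of other lineages 15 fell. Srm, which makes the polyamine spermidine, stood at 122, 136 and 129 CPM in Txnip-negative and at 59.8, 84.3 and 61.4 CPM in Txnip-high cells (-0.89 ± 0.15, adjusted p = 0.0016). The RNA helicase Eif4a1 fell by 0.44, the nucleolar protein Ncl by 0.39 and the nucleolar GTPase Gnl3 by 0.66. The member that rose was Mycn (0.91), singled out after its value was seen. Of 77 ribosomal protein genes 0 passed in either direction by edgeR or by DESeq2, with 12 at an unadjusted edgeR p under 0.05 and a median of -0.0092. Of 23 tested heat shock and ER folding genes 7 fell and 0 rose (median -0.28), led by the ER chaperone Hspa5 at 237, 222 and 284 CPM against 150, 165 and 148 CPM (-0.67 ± 0.12, adjusted p = 0.00283). The chaperones Hspa8 and Hspd1 fell by 0.28 and 0.47.

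The genes of energy metabolism that passed were lower in Txnip-high cells, beside 1.57% of all genes tested that were called lower. Of 73 tested nuclear genes of oxidative phosphorylation 7 fell and 0 rose (median -0.16), and 5 fell without cells of other lineages. An unadjusted edgeR p under 0.05 was found for 23 of the 73, and 11 had a positive log2 fold change. Ndufa4, a subunit of the respiratory chain, stood at 1029, 1018 and 1177 CPM in Txnip-negative and at 693, 741 and 769 CPM in Txnip-high cells (-0.54 ± 0.07, adjusted p = 3.7e-05). Cytochrome c, encoded by Cycs, fell by 0.67, and Cox5a and Atp5g1 fell by 0.45 and 0.41. The 13 mitochondrially encoded genes, whose share the rule limits, had 0 calls. Of 25 tested genes of glucose uptake and glycolysis 2 fell, Gapdh (-0.26) and Pgam1 (-0.40), and 0 rose, with 11 at an unadjusted edgeR p under 0.05. Of 12 tested regulators and targets of MondoA and ChREBP 0 passed by edgeR or DESeq2 (3 at an unadjusted edgeR p under 0.05, median -0.09). Of 6 tested arrestin relatives of Txnip 0 passed by either tool (2 unadjusted, median 0.11). Arrdc4, an arrestin relative of Txnip and a MondoA target, stood at a mean of 6.81 CPM in Txnip-negative and 14.7 CPM in Txnip-high cells (1.17 ± 0.47, adjusted p = 0.27). Klf10 stood at 10.8 and 29.6 CPM (1.09 ± 0.39, adjusted p = 0.192). Of 26 tested thioredoxin, glutathione and antioxidant genes 0 passed by either tool, with 5 unadjusted. DESeq2 gave an adjusted p for only 9 of the 24 named genes. Low-count members of the MondoA, arrestin and antioxidant lists may likewise have had none, and could then not pass by it.

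**Figure D3:**
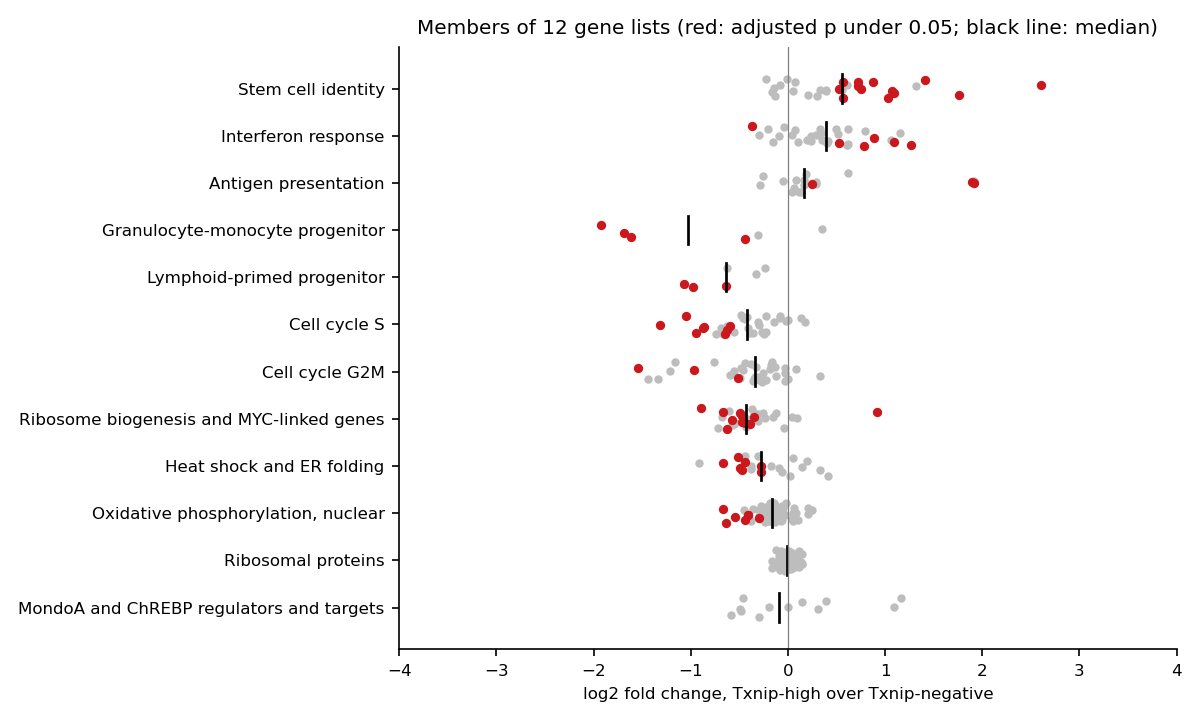
Log2 fold change (x axis, Txnip-high over Txnip-negative) of each tested member of 12 gene lists (y axis), with called genes in red, others in grey and the list median as a black line. Red points lie to the right for stem cell identity, with a median of 0.55, and to the left for S phase, with a median of -0.42, while ribosomal proteins have none.

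Another 7 of the named genes are also expressed in T, innate lymphoid, dendritic or basophil cells. Trbc1, a T cell receptor constant region, stood at 278, 25.7 and 119 CPM in Txnip-negative and at 14.2, 4.02 and 9.03 CPM in Txnip-high cells (-3.90 ± 0.25, adjusted p = 3.0e-09), and Trgc4 (-4.09) and the innate lymphoid factor Zbtb16 (-3.33) fell likewise. Without cells of other lineages these 3 genes and Ccr9 had too few counts to be tested. Id2 and Rora, factors of innate lymphoid cells, changed sign without those cells, from -1.50 to 0.46 (adjusted p = 0.812) and from -1.48 to 1.42 (adjusted p = 0.116). Mcpt8, a protease of basophils, went from 2.14 to 0.18 (adjusted p = 0.921). T cell receptor constant genes are near-identical copies, so reads may be split among them. Bcl2, which blocks cell death, fell by 1.42 with all cells and by 0.90 without them (adjusted p = 0.00426), and Atp8b4, a lipid flippase, had -1.38 and -1.37 but did not pass the second time (adjusted p = 0.0643), nor without WT 1 or WT 2 (adjusted p = 0.278 and 0.16). S100a9, a neutrophil gene singled out after its values were seen, stood at 10924 CPM in the Txnip-negative cells of WT 1 and at 6.43 to 21.2 CPM in the 5 other sums. It was 4.70 CPM in WT 1 without cells of other lineages.

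**Figure D4:**
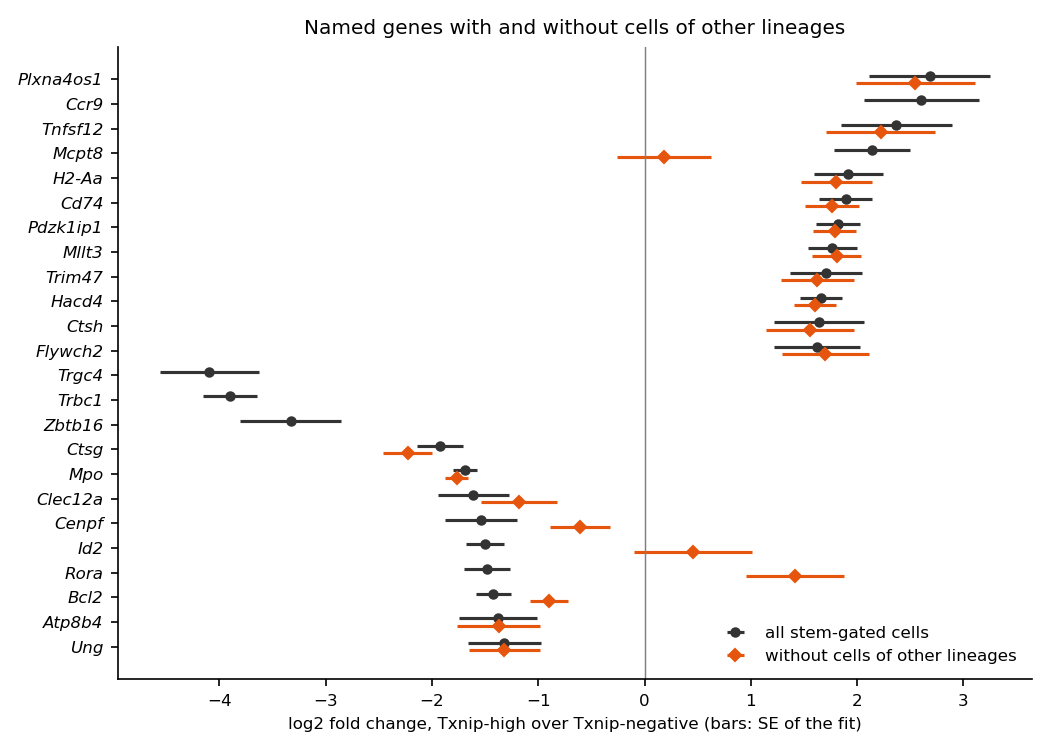
Log2 fold change with its standard error (x axis) of the 24 named genes (y axis) over all stem-gated cells (black circles) and without cells of other lineages (orange diamonds, absent where not tested). Pdzk1ip1, Mllt3, Hacd4, Mpo and Ung barely move, while Mcpt8 moves to 0.18, Id2 to 0.46 and Rora to 1.42.

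Stem-gated cells with 1 Txnip UMI and those with 2 or 3, which the comparison above leaves out, were compared in the same way. Of 8568 genes tested 13 passed (0.152%), 3 higher (0.0350%) and 10 lower (0.117%) in cells with 2 or 3 UMIs, and Txnip, which defines the classes, is 1 of them. Mpo fell by 0.53 (adjusted p = 4.8e-07) and Ifitm1 rose by 0.29 (adjusted p = 0.0239). The basophil and mast cell genes Mcpt8 and Prss34 fell, with log2 fold changes of -1.83 and -2.91, against their direction in the first comparison. The count was 3 without cells of other lineages, 7 without WT 1 and 20 without WT 2. Of the 58 genes called higher in Txnip-high cells, outside the rule, and tested here, 47 were higher in cells with 2 or 3 UMIs than in cells with 1, with a median log2 fold change of 0.21. Of the 135 called lower, 98 were lower, with a median of -0.08. Over all 8399 genes tested in both, 49.6% were higher and the median was -0.0018. Both comparisons come from the same 3 libraries but share no cell.

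Levels over 5 classes of Txnip UMIs are given for genes picked by the first comparison (CPM of all UMIs, SD, n = 3). The cells with 0, 4 to 6 and 7 and over UMIs are those of that comparison. The difference between the ends was therefore set by the choice of genes. Only the classes with 1 and with 2 to 3 UMIs hold other cells. Pdzk1ip1 stood at 27.8 ± 7.80 at 0 UMIs, 58.9 ± 9.49 at 1, 70.4 ± 4.78 at 2 to 3, 96.3 ± 14.8 at 4 to 6 and 130.3 ± 21.9 at 7 and over. Mllt3 stood at 25.9 ± 13.7, 32.4 ± 10.4 and 41.0 ± 8.72 in the first 3 classes, and then at 75.0 ± 11.4 and 125 ± 17.8. The SD ranges of the first 3 Mllt3 classes overlapped, though an SD between samples leaves out their pairing. In the edgeR comparison paired by sample, 2 to 3 UMIs against 1, Mllt3 had 0.36 and did not pass (adjusted p = 0.978). Mpo stood at 424 ± 40.1, 492 ± 204, 339 ± 124, 151 ± 39.7 and 122 ± 43.6, and Cd48 at 142 ± 27.9, 131 ± 19, 117 ± 26.1, 81.8 ± 11.1 and 64.0 ± 6.87. The largest step in mean Mpo lay between 2 to 3 and 4 to 6 UMIs, at the threshold by which the gene was picked. Mpo was also lower at 2 to 3 UMIs than at 1 in the paired comparison above (-0.53). Ly6a reached its highest mean at 4 to 6 UMIs, 137 ± 20.2, and had 119 ± 11.4 at 7 and over, which overlap.

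**Figure D5:**
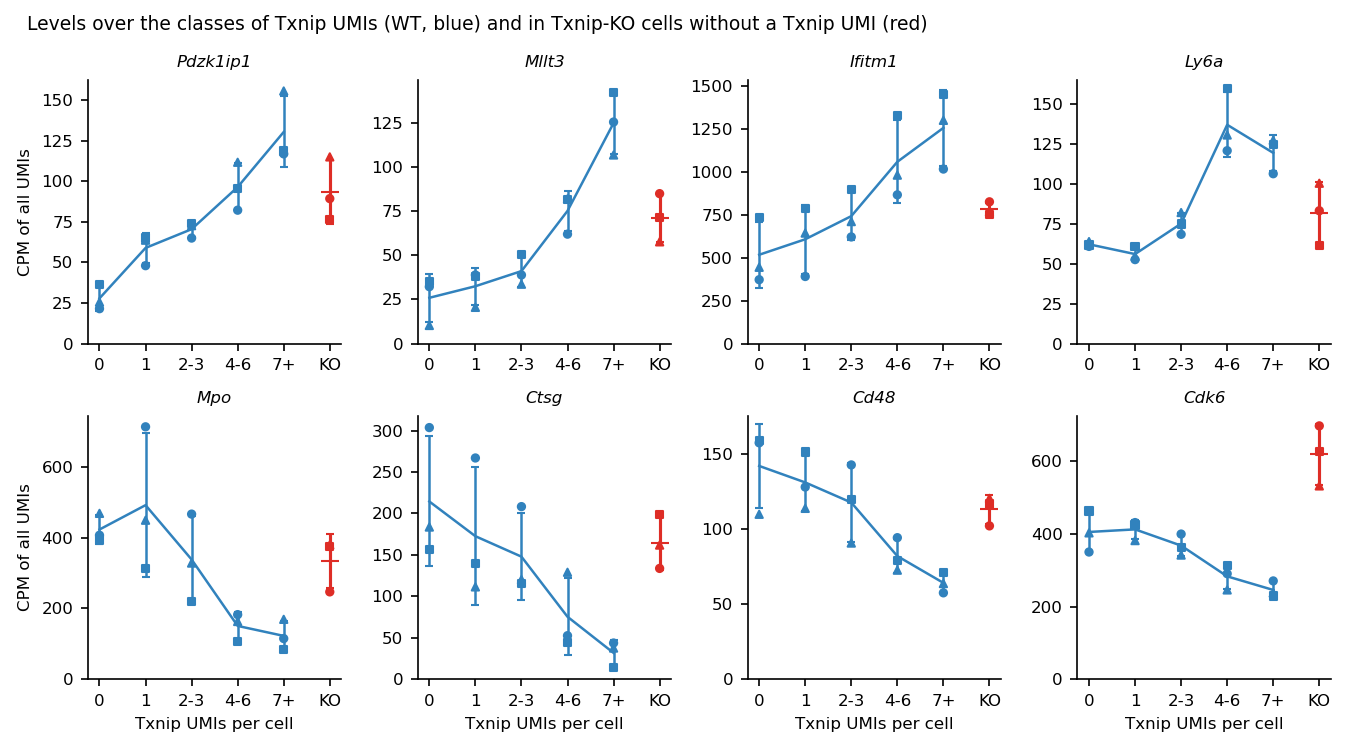
CPM of all UMIs (y axis, from 0) of 8 genes over the classes of Txnip UMIs (x axis) in WT stem-gated cells (blue) and in Txnip-KO stem-gated cells with 0 Txnip UMIs (red), with points for samples, means and SD bars over 3 samples. Pdzk1ip1 ascends from 27.8 to 130.3 and Cd48 descends from 142 to 64.0, while Cdk6 stands at 619 in Txnip-KO cells, above every WT class.

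Txnip-KO cells with 0 Txnip UMIs were set against WT cells with 0 Txnip UMIs. Such cells were 5.67% to 13.6% of the stem gate in WT and 87.2% to 99.9% in Txnip-KO. Most of the Txnip-KO gate was thus set against a small part of the WT gate, selected on its Txnip UMIs. An effect of the knock-out cannot be told apart from that selection here. Of 10695 genes tested 766 passed (7.16%), 308 higher (2.88%) and 458 lower (4.28%) in Txnip-KO. The count was 489, 117 and 195 without WT 1, 2 and 3 and 377, 668 and 911 without Txnip-KO 1, 2 and 3, and 960 without cells of other lineages. This comparison shares the WT Txnip-negative cells with the first, so the values are only set side by side. Pdzk1ip1 was 1.82 higher in Txnip-high WT cells and 1.52 higher in Txnip-KO cells, each over the same WT Txnip-negative cells, and Mllt3 1.77 and 1.27. For Mpo the values were -1.69 and -0.42 (adjusted p = 0.125 for Txnip-KO against WT cells with 0 UMIs), and for Ctsg -1.93 and -0.39 (adjusted p = 0.252). For Cd74 they were 1.89 and -0.19 (adjusted p = 0.801) and for Ly6a 1.08 and 0.29 (adjusted p = 0.454). Cdk6 had opposite signs, with -0.64 in Txnip-high WT cells and 0.50 in Txnip-KO cells (adjusted p = 0.0305). Arrdc4 was 3.08 and Klf10 2.58 higher in Txnip-KO cells. Of the 24 named genes 14 passed between the genotypes, beside 7.16% of all genes tested. The same WT Txnip-negative cells served to pick these genes, so this count is not a separate result. In levels, Txnip-KO cells held 93.5 ± 19.7 CPM of Pdzk1ip1, 71.3 ± 13.6 of Mllt3, 334 ± 75.7 of Mpo and 619 ± 83.0 of Cdk6 (SD, n = 3).

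The same Txnip classes were formed in 2 other gates, and the difference of the class effects was tested as an interaction. Against Flt3 Dntt progenitors 17 of 9029 genes passed (0.188%), 1 higher (0.0111%) and 16 lower (0.177%) in stem-gated cells. The count was 2 without WT 1 and 8 without cells of other lineages. The fall of Mpo was larger in stem-gated cells by 1.22 (adjusted p = 0.000591), while its value in the progenitors was -0.44 (adjusted p = 0.0543). For Pdzk1ip1, Mllt3, Cd74, H2-Aa and Ctsg the interaction did not pass, and Cd74 and H2-Aa rose within the progenitors too, by 1.48 and 1.27. Plasmacytoid dendritic markers were carried there by 29 of 57, 77 of 152 and 63 of 105 Txnip-negative cells and by 31 of 103, 22 of 40 and 36 of 97 Txnip-high cells. Once cells of other lineages were left out, Cd74 and H2-Aa had 0.95 and 1.17 in the progenitors and did not pass (adjusted p = 0.0904 and 0.37). Against NK cells 184 of 8246 genes passed (2.23%), 33 higher (0.400%) and 151 lower (1.83%), with 121 without WT 2 and 152 without cells of other lineages. Here Tnfsf12 rose in stem-gated cells by 2.37 and had -0.13 in NK cells, a difference of 2.53 ± 0.54 (adjusted p = 0.00552), and of 1.89 without WT 2 (adjusted p = 0.27). Mllt3 differed by 1.37 (adjusted p = 0.0575), by 1.51 without cells of other lineages (adjusted p = 0.00757) and by 0.52 without WT 3 (adjusted p = 0.745). Cd74 and H2-Aa rose in the NK gate by 1.47 and 2.04, but without cells of other lineages Cd74 had -0.066 (adjusted p = 0.965) and H2-Aa was not tested. The interaction of Cd74 was then 1.83 (adjusted p = 0.00976). Mpo and Ctsg had the opposite sign in the NK gate, 2.62 and 3.61. There 10, 3 and 8 of 77, 33 and 94 Txnip-high cells carried basophil or mast markers and 1, 0 and 0 of 152, 90 and 124 Txnip-negative cells did. In the NK gate without cells of other lineages Ctsg still had 3.61 and Mpo was not tested.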

How the data were processed

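Single-cell RNA libraries (10x Chromium 3' version 3.1, per the labels' protocols) of 3 WT and 3 Txnip-KO marrow samples were analysed. The deposited values are raw UMI counts per gene and barcode, made by the authors. The submitters' processing notes name CASAVA 1.8, Cell Ranger 6.1.1 and Seurat 2.3.4. The sources used here give neither genome build nor annotation. The WT libraries hold 72152212, 80876483 and 79840940 UMIs in 7213, 8140 and 8097 barcodes. Doublets were left in, and removal of those scored by Scrublet (scanpy 1.11.5) was an alternative.

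Cells were gated and counts summed per sample and Txnip class, since cells are not replicates. Sums were tested with edgeR 4.0.16 in R 4.3.3 (filterByExpr, TMM, quasi-likelihood test, sample as block within WT, Benjamini-Hochberg adjustment over all genes tested, threshold 0.05). The pairing by sample comes from both classes being in 1 library. The genotype comparison has no block. Thinning drew 5000 UMIs per cell, which left out 0 cells since the gate starts there. Cells of other lineages are those with at least 10 UMIs of 1 lineage's markers. The lineages were neutrophil, NK, T or innate lymphoid, B, basophil or mast, monocyte and plasmacytoid dendritic. The B lineage did not count in the progenitor gate, nor NK, T or innate lymphoid in the NK gate. Scripts were tested on simulated data.

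Named genes are the 12 largest rises and 12 largest falls among called genes whose mean reached 10 CPM, with the same sign in all 3 samples and without predicted genes and the genes of the rule, then up to 4 members of each list with the smallest p, and 5 per direction in the interactions. Members and lists were chosen with earlier results of these data known. Alternatives were DESeq2 1.42.0 size factors and Wald test, no filter, no block, each replicate left out, other Txnip thresholds, depth matching, thinning, a stricter gate and cells without division transcripts. Matching on Hlf, Mecom and Procr and leaving out cells of other lineages were added after seeing the data. Promoters are from RefSeq, and 8 rises and 9 falls had one. Some genes that the rule names are not reported here.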

Additional observations from a re-analysis of the deposited data

Results flagged for a closer look

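Effects of the Txnip class that differed between the stem gate and another gate, by the edgeR interaction test, are given here as log2 differences of the effects, stem-gated cells minus the other gate. Against Flt3 Dntt progenitors the differences were -7.06 for Trbc1, -4.75 for Ccl5, -2.53 for Cenpf, -1.83 for Anxa1 and -1.78 for Ccl9. Ccl5, a chemokine of T and NK cells, fell in stem-gated cells by 2.18 and rose in progenitors by 2.59. Cenpf fell in stem-gated cells by 1.54 and rose in progenitors by 1.02. Anxa1, annexin A1, had -0.19 (adjusted p = 0.814) and rose by 1.67. Without cells of other lineages Ccl9, a myeloid chemokine, still passed (-1.64, adjusted p = 0.00423), Cenpf (-1.66, adjusted p = 0.15) and Anxa1 (-1.01, adjusted p = 0.196) did not, and Trbc1 and Ccl5 were not tested.

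Against NK cells the effect was higher in stem-gated cells for Ifi44 by 4.96, Socs2 by 2.99, Mcoln2 by 2.60, Tnfsf12 by 2.53 and Tmem37 by 2.22. Within stem-gated cells Ifi44 (1.16, adjusted p = 0.0802), Mcoln2 (1.06, adjusted p = 0.362) and Tmem37 (1.39, adjusted p = 0.213) did not pass. Tmem37 had -0.80 in the NK gate (adjusted p = 0.00158). The differences of Socs2, Mcoln2 and Tmem37 did not pass without WT 2 (adjusted p = 0.375, 0.215 and 0.399). Without cells of other lineages the differences of Ifi44 (3.93), Tnfsf12 (2.43) and Tmem37 (2.18) still passed, that of Socs2 did not (2.85, adjusted p = 0.0623), and Mcoln2 was not tested. The effect was lower in stem-gated cells for Igsf6, Cybb, Aqp9 and Ccl9, with differences of -9.61, -7.66, -7.50 and -7.19. Without WT 1 Cybb had 0.18 (adjusted p = 0.954) and Igsf6 -6.24 (adjusted p = 0.504). Without WT 2 Aqp9 had -6.63 (adjusted p = 0.118). In these settings the genes did not pass. Within the NK gate Igsf6, Aqp9 and Ccl9 rose by 7.40, 7.08 and 6.34. Without cells of other lineages the differences of Aqp9 and Ccl9 were -6.96 and -6.77 and passed, and Igsf6 and Cybb were not tested.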

How the results depend on the processing

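The within-WT count of 208 genes was 76 with DESeq2's Wald test, 43 with depth-matched cells, 98 with thinned cells, 61 without dividing cells, 39 with cells matched on the gate genes, 107 at 2 or more Txnip UMIs, 340 with classes per 10000 UMIs and 425 against at most 1 Txnip UMI. Leaving out a replicate gave 177 to 182. In the cells without division transcripts, in those matched on depth or gate genes and in thinned ones, fewer genes were tested, and the Wald test's cause was not tested. Of 400 alternative values of the named genes 348 were still called, 50 kept their direction without passing and 2 reversed. The reversals were Id2 (0.46) and Rora (1.42), both without cells of other lineages. The 400 leave out each named gene that a setting filtered out or gave no adjusted p. With depth-matched cells 9 named genes were called, 2 kept their direction without passing, and the rest had no value. DESeq2 gave an adjusted p for 9 named genes, all called. Matched on Hlf, Mecom and Procr, 7 named genes could be tested, of which 3 were called, Mpo, Ctsg and Pdzk1ip1. The genotype count of 766 was 117 to 911 with a replicate left out and 2658 over all stem-gated cells. With the replicate block it was 933, and the replicate numbers did not pair the samples (correlations of same-numbered deviations 0.0089, 0.046 and -0.021). The progenitor interaction count of 17 was 2 with the Wald test, 79 without a filter, 5 with no replicate block, 2 to 19 with a replicate left out and 8 without cells of other lineages. The NK interaction count of 184 was 84 with the Wald test and 121 to 168 with a replicate left out. The count of 13 between 1 and 2 or 3 Txnip UMIs was 4 with the Wald test, 4 with no replicate block, 7 to 20 with a replicate left out, 3 without cells of other lineages, 8 depth-matched and 6 thinned. Detected genes per cell reversed to -70.5 unthinned. The Mki67 or Top2a difference was -8.98 to -6.85 and detected genes 27.3 to 36.3 with a replicate left out. With depth-matched cells they were -3.97 and 16.2. The 27 to 72 Txnip-negative cells per sample limit what small changes could be detected.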

Other observations

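Further gene groups within WT moved as follows, beside 0.798% of all genes tested called higher and 1.57% called lower. Of 24 tested genes of the actin cytoskeleton and galectins 5 fell and 0 rose in Txnip-high cells, and 3 fell without cells of other lineages. Tmsb10, which holds actin monomers, fell by 0.42, and the actin regulators Cfl1 and Pfn1 by 0.33 and 0.28. Of 33 tested interferon response genes 5 rose and 1 fell (median 0.39), among them the transcription factor Irf1 (0.79), while the immunoproteasome subunit Psmb8 fell by 0.37. Of 26 tested genes of autophagy and the lysosome 2 rose, the protease Ctsl (1.28) and Laptm4a (0.48). Among FoxO targets Pik3ip1, an inhibitor of PI3 kinase, rose by 0.69.

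Imprinted and nuclear RNAs were among the rises. Meg3, an imprinted non-coding RNA of stem cells, had 0 of 1466418 UMIs in Txnip-negative cells and 82 of 7083305 in Txnip-high cells, which is at least 5.66-fold higher against a floor of 3 UMIs over the 3 sums. Malat1, a nuclear-retained RNA, rose by 0.32 (adjusted p = 0.0128) and by 0.43 without cells of other lineages. Its Txnip-negative values of 8989, 7277 and 5828 CPM and its Txnip-high values of 9444, 8499 and 9217 CPM overlap between samples.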
